A study of Mus musculus with 23 samples.

Results

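The genes of the nuclear receptor family, with the Ncor and Ncoa cofactors that receptors recruit, were examined as places where NR5A2 binds chromatin. NR5A2 is itself an orphan nuclear receptor. Its binding was mapped in an earlier study, and accessibility was measured in 8-cell mouse embryos. Of 49 genes chosen by name (45 autosomal receptors other than Nr5a2, 1 Ncor and 3 Ncoa genes), 29 were the nearest protein-coding gene, within 50 kb, of at least 1 NR5A2-bound region. They held 61 of the 16958 regions of the deposited table, 31 of the 8228 that the authors class as accessible and 30 of the 8730 classed as not accessible. Genes were chosen by name, and regions by position alone (mm10), so no accessibility value was used to pick a region. The genes were chosen with earlier results of these data known. The nearest gene is a label of position and does not show which gene a region regulates.

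The assay was ATAC-seq, which reads open chromatin from where a transposase can insert adapters. Heterozygous embryos (mz_NrHet, 8 libraries) were compared with knockout embryos (mz_NrKO, 13 libraries) of the maternal-zygotic (mz) series, taken at the 8-cell stage. The labels do not say whether the heterozygous embryos carried maternal NR5A2. The inducible series (iNrKO) consisted of 1 pool without 4-hydroxytamoxifen (labelled Nrpp) and 1 pool given 750 nM of it for 24 h, both from early 2-cell embryos collected 30 h after hCG, then kept in culture 45 h. The sources used here do not say what drives the recombinase. A pool with the drug but an intact gene was not analysed here, so the drug and the deletion cannot be told apart. The table gives 1 merged RPKM value per group and region, so no difference has a replicate check. Intervals and tests below are about these merged libraries rather than the conditions, with no error but that of counting.

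Nuclear receptors are transcription factors with a zinc finger domain that reads short hexamer sites in DNA and, in most members, a pocket that binds a lipid-soluble ligand. Many bind as pairs with a retinoid X receptor, whereas NR5A2 and the estrogen-related receptors bind single extended sites as monomers. Ligand state sets which cofactors are recruited: NCOA proteins bring histone acetyltransferases, and NCOR1 brings a histone deacetylase complex. In early embryos NR5A2 and ESRRB are known as factors of totipotent and pluripotent cells.

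Promoter sequences are shown for 4 members because the positions of bound regions and of receptor motif letters relative to them bear on the results. The sequences are from RefSeq (GRCm38.p6, the assembly of mm10), which listed 64 promoter windows of 300 bases, from 250 before to 50 after a start site, for 43 of the 49 genes. Rarg (chr15:102246451-102246750, minus strand) had the only window that a bound region overlapped, and the capitals mark the 120 bases of the window inside that region. In Rxra (chr2:27709042-27709341, plus strand), Nr6a1 (chr2:38784466-38784765, minus strand) and Nr0b2 (chr4:133553126-133553425, plus strand) the capitals mark a core site of orphan receptors. The Rarg, Rxra and Nr6a1 windows belong to start sites downstream of the most upstream listed start of the gene. The bound Rarg region lay 10.7 kb into the gene from that most upstream start. Rxra and Nr6a1 had 4 and 5 bound regions, none of them over the window, and Nr0b2, a gene known as a target of NR5A2 in liver, had none within 50 kb.
Rarg: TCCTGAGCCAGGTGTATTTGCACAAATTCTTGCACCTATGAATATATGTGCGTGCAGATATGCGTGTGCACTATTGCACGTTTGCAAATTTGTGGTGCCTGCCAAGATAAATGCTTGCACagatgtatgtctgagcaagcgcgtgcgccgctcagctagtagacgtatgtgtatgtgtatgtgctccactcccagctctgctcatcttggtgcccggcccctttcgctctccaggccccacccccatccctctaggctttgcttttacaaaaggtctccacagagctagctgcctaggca
Rxra: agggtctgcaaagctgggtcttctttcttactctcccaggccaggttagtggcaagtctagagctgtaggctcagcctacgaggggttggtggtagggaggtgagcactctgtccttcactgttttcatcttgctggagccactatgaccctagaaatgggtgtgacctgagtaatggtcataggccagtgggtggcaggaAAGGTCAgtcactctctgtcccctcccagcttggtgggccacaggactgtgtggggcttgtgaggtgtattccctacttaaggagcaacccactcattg
Nr6a1: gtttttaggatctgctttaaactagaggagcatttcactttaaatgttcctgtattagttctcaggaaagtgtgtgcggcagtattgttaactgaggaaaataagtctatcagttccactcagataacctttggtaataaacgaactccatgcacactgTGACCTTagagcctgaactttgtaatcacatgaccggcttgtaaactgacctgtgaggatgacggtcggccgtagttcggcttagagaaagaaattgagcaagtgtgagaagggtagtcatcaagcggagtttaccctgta
Nr0b2: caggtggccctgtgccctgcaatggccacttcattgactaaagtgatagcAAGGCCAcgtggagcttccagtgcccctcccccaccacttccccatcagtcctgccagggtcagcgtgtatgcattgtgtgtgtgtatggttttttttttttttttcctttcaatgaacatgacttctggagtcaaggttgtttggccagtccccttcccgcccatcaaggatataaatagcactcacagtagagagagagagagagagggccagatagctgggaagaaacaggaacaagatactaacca

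The letters AAGGTCA, searched on both strands, were present in 3 of the 64 member windows (Rxra, Rxrg and Nr6a1) and in 4.72% of all 32851 listed windows. AAGGCCA was present in 2 member windows (Nr0b2 and Esr1) and in 6.20% of all. The longer forms TCAAGGTCA and TCAAGGCCA, which contain the former, were in no member window and in 0.423% and 0.591% of all windows. Direct repeats of AGGTCA with spacers of 1 and 5 bases were in no member window and in 13 and 3 of all. Counted from the start site of each printed window, the site began at base -49 in Rxra, at -91 on the opposite strand in Nr6a1 and at -200 in Nr0b2. These letters describe the windows and do not show binding.

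Bound regions lay mostly away from start sites. For the 55 regions whose gene had a listed start, the median distance to the nearest one was 24.4 kb, the largest 145 kb, and only 9 regions lay within 5 kb. Inside the gene span were 43 of the 61 regions (70.5%, against 50.9% of all regions). The CUT&RUN signal, the authors' RPKM of NR5A2 cleavage from an earlier study, had a median of 4.95 over the 61 regions (range 1.10 to 14.3) and 4.15 over all regions. The strongest binding was inside Thra (14.3) and at 1 of 2 regions inside Ppard (13.5). The authors had moved the binding summit onto an Nr5a2 motif in 52 of the 61 regions (85.2%) and in 89.3% of all. Regions just inside the 50 kb limit were those of Thrb at 42.8 kb (0.587, 0.717, 0.490 and 0.170 RPKM in heterozygotes, mz knockouts, untreated and treated pool) and Rxra at 45.4 kb (11.7, 7.17, 6.04 and 4.76 RPKM). The nearest outside it were at Ncoa1 at 56.3 kb (2.94, 2.87, 1.96 and 1.87 RPKM) and Nr4a3 at 63.2 kb (4.11, 2.87, 3.10 and 0.510 RPKM).

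Depth set what could be seen. A single read was worth 0.587 RPKM in the heterozygote column, 0.359 in mz knockouts, 0.163 in the untreated and 0.170 in the treated pool. The 61 regions held 370, 469, 1096 and 794 reads in that order, with medians of 5, 5, 16 and 11 reads a region. Whether reads were counted over the listed region or over a window of fixed width is not known, so neighbours may share reads. Pairs under 1000 bp apart were at Nr6a1 (420 bp), Nr1h2 (510 bp), Ncor1 (685 bp) and Rarg (974 bp), and intervals of summed ratios treat their reads as separate. In the heterozygote column 8 of the 61 regions had 0 reads, for which 3 reads, or 1.76 RPKM, is the limit that a count of 0 allows. No region lay inside the Nr5a2 span, so the deletion itself could not be checked in this table. Since the table lists only bound regions, other cell types could be looked for only through them: cumulus and granulosa genes had 5 regions at 5 of 13 genes, with means of 0.470, 0.646, 1.04 and 0.783 RPKM in the 4 columns, 3 of them with 0 reads in heterozygotes. Their part in the results was not tested.

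Over the 61 regions together, accessibility was lower in both knockouts, with overlapping intervals of the ratio. The mean went from 3.56 RPKM in heterozygotes to 2.76 RPKM in mz knockouts, a ratio of summed RPKM of 0.774 (95% exact interval 0.674 to 0.889), beside 0.668 for all regions. In the inducible series it went from 2.93 to 2.21 RPKM, a ratio of 0.755 (0.688 to 0.828), beside 0.694 for all. Median log2 ratios, on the log2(RPKM + 1) scale that understates changes of low regions, were −0.22 in mz embryos and −0.29 in the inducible series, beside −0.32 and −0.35 over all regions. The knockout value was below the control value in 35 of the 61 regions in the mz series (background over all regions 64.3%) and in 44 in the inducible series (74.4%). It was lower in both series in 27 of the 61 regions, or 44.3%, where 50.5% of all regions were. In the classes of the authors' deposited table, which combine both series, 19 of the 61 regions (31.1%) were classed as losing accessibility, 10 (16.4%) as gaining it and 32 (52.5%) as unchanged, beside 41.5%, 16.9% and 41.6% of all regions. Some gains came from a control column with 0 reads, where even 1 knockout read makes the deposited ratio large. With 0 reads in both columns that ratio is 1. Large mz ratios of this kind were 36.9 and 72.7 at Rora, 109 at Nr6a1, and 72.7 and 144 at Ncor1, from 1 to 4 knockout reads. In the inducible series Nr2c1 had 69.1, from 0 against 4 reads. Rora at 68750451 and Ncor1 at 62360592 were classed as gains with deposited inducible ratios of 0.354 and 0.421.

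Single regions were compared by an exact binomial test on the reads recovered from the RPKM steps, adjusted by Benjamini-Hochberg over all 16958 regions. In the mz series 1 of the 61 regions was lower (1.64%, with 1.73% of all regions called lower) and 0 were higher (0.0236% of all). At an unadjusted p under 0.05, 5 were lower and 1 was higher, beside 2021 and 120 of all 16958 regions. In the inducible series 5 were lower (8.20%, with 6.37% of all) and 0 were higher (0.0767% of all). There 12 were lower and 1 was higher at an unadjusted p under 0.05, beside 3335 and 149 of all 16958 regions. All 6 called regions were accessible, so that 3.23% of the 31 accessible members were called lower in mz knockouts and 16.1% in the treated pool. Among all accessible regions 3.11% were called lower and 0.0486% higher in mz knockouts, and 10.4% lower and 0.0851% higher in the treated pool. None of the 6 calls was kept when the shift of all regions (−0.32 and −0.35) was removed from the knockout columns. Their log2 ratios stayed negative, going from −1.95 to −1.72 at Rxra, −1.26 to −1.0 at Thra, −1.26 to −1.06 at Nr2e1, −1.40 to −1.25 at Esrrg, −1.21 to −1.01 at Nr4a3 and −1.02 to −0.77 at Ncoa2. No member region passed the exact test of a difference between its mz and inducible ratios (0.0177% of all regions did), and the smallest adjusted p was 0.991, at Nr1h3.

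**Figure D1:**
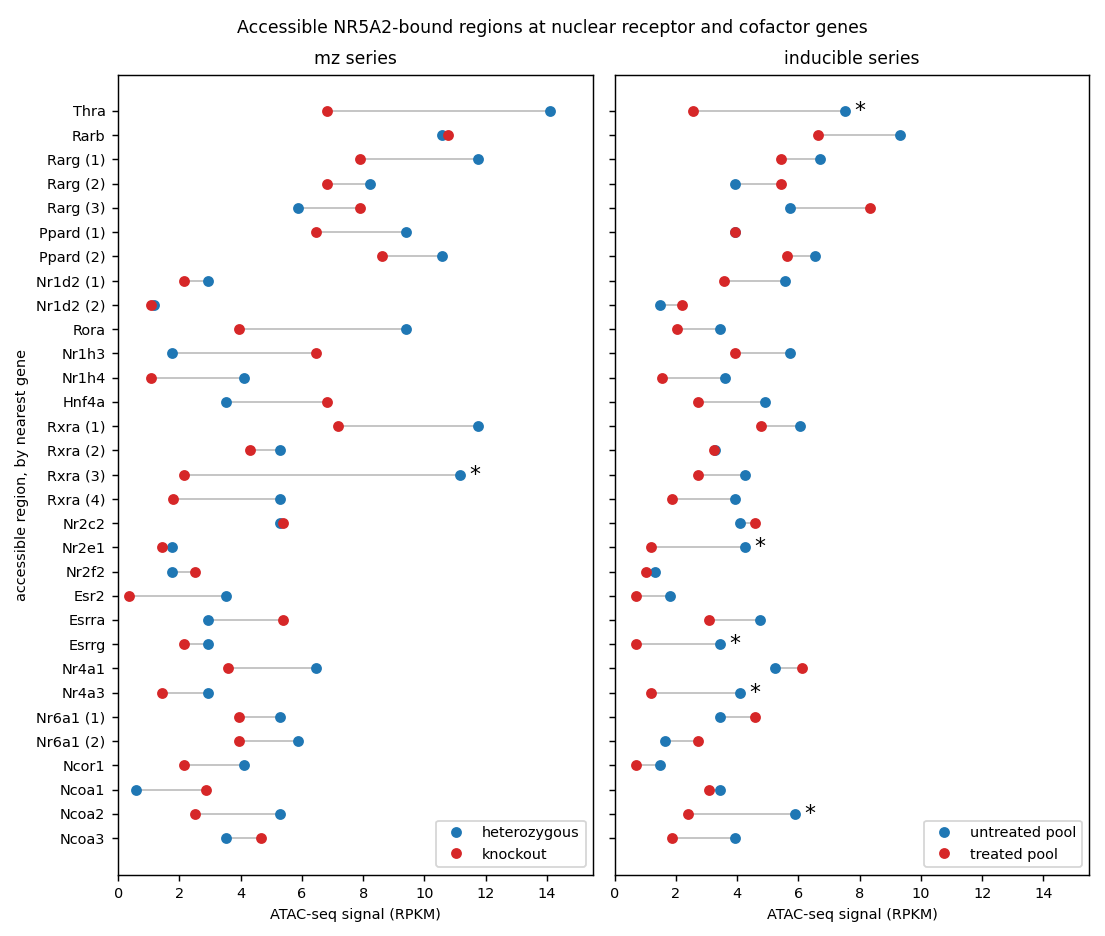
ATAC-seq signal in RPKM (horizontal axis) of the 31 accessible regions, 1 per row by nearest gene, with control (blue) and knockout (red) joined by a line, in the mz series (left) and the inducible series (right). Stars mark the regions called by the exact binomial test: an Rxra region on the left, and Thra, Nr2e1, Esrrg, Nr4a3 and Ncoa2 on the right.

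Among the NR1 receptors 1 of 24 regions was called, at a thyroid hormone receptor gene. That was 4.17% in the inducible series, beside 6.37% of all regions, and 0 in the mz series, beside 1.73%. The region inside Thra (chromosome 11, 98754896 to 98755218), which encodes thyroid hormone receptor alpha, was the most accessible of the 61 in heterozygotes. It had 14.1 RPKM in heterozygotes, 6.81 in mz knockouts, 7.51 untreated and 2.55 treated. Both knockout values were below their controls, with ratios of 0.483 (0.250 to 0.921) and 0.340 (0.176 to 0.620). The inducible loss rested on 46 against 15 reads and passed the test (adjusted p = 0.00827, exact binomial test), and the mz loss did not (adjusted p = 0.239, exact binomial test). Thrb, the beta receptor gene, had 2 regions, neither accessible, with at most 0.717 RPKM in any column.

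The retinoic acid receptor genes, grouped after their values were seen, had ratios nearer 1 than the members as a whole. Their 8 regions, 6 at Rarg and 1 each at Rara and Rarb, had a ratio of 0.928 (0.685 to 1.27) in mz embryos and 0.986 (0.812 to 1.20) in the inducible series, and the authors' deposited table classes all 8 as unchanged. The region inside Rarb (chromosome 14, 16569513 to 16569995), a receptor gene known for induction by retinoic acid itself, had the highest mean of both controls among all 61 after Thra. It had 10.6 RPKM in heterozygotes, 10.8 in mz knockouts, 9.30 untreated and 6.64 treated, with ratios of 1.02 (0.549 to 1.94) and 0.713 (0.462 to 1.09), neither of which passed the test. The Rara region, 1.02 kb outside the gene, was not accessible, with 2.35, 1.79, 2.29 and 2.04 RPKM.

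At Rarg 3 of the 6 regions lay inside the gene and 3 outside it, the farthest at 10.5 kb. The region over the printed promoter (chromosome 15, 102246631 to 102246935) had 8.22 RPKM in heterozygotes, 6.81 in mz knockouts, 3.92 untreated and 5.45 treated. Its CUT&RUN signal was weak, 2.16 RPKM, at percentile 14.4 of all regions, and its summit was not moved and lay at 102246880, before the window. The region inside the gene at 102240463 had 11.7, 7.89, 6.69 and 5.45 RPKM, and the region 10.5 kb outside at 102267771 had 5.87, 7.89, 5.71 and 8.34 RPKM. Knockout values at Rarg were thus above control at some regions and below at others. Summed over the locus the ratio was 0.910 (0.630 to 1.32) in mz embryos and 1.10 (0.872 to 1.38) in the inducible series. The latter interval lay above the ratio of all regions, 0.694, as did those of Nr4a1 and Nr6a1 among the 29 genes. How often intervals of genes outside these 29 miss the ratio of all regions was not counted in either series.

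Rxra, the gene of the common partner of retinoid, thyroid, vitamin D and lipid-sensing receptors, held the only mz call. Its 4 regions, all accessible and all outside the gene span, had 33.5 RPKM summed in heterozygotes and 15.4 RPKM in mz knockouts, a ratio of 0.461 (0.303 to 0.696), the lowest of 15 genes with at least 20 reads. The region 7.02 kb outside the gene (chromosome 2, 27669329 to 27669518) had 11.2 RPKM in heterozygotes, 2.15 in mz knockouts, 4.24 untreated and 2.72 treated. The mz loss was 19 against 6 reads, a ratio of 0.193 (0.0630 to 0.502), and passed the test (adjusted p = 0.0191, exact binomial test). The inducible ratio was 0.642 (0.322 to 1.24), and the 2 ratios did not pass the test of their difference. The region 29.7 kb outside at 27792752 had 5.29, 1.79, 3.92 and 1.87 RPKM, the one at 27661832 had 5.29, 4.30, 3.26 and 3.23 RPKM, and the one at 27630683, 45.4 kb away, 11.7, 7.17, 6.04 and 4.76 RPKM. All 4 had lower values in both knockout columns, as did 50.5% of all regions and 62.6% of all accessible ones. The whole locus had a ratio of 0.721 (0.529 to 0.979) in the inducible series.

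**Figure D2:**
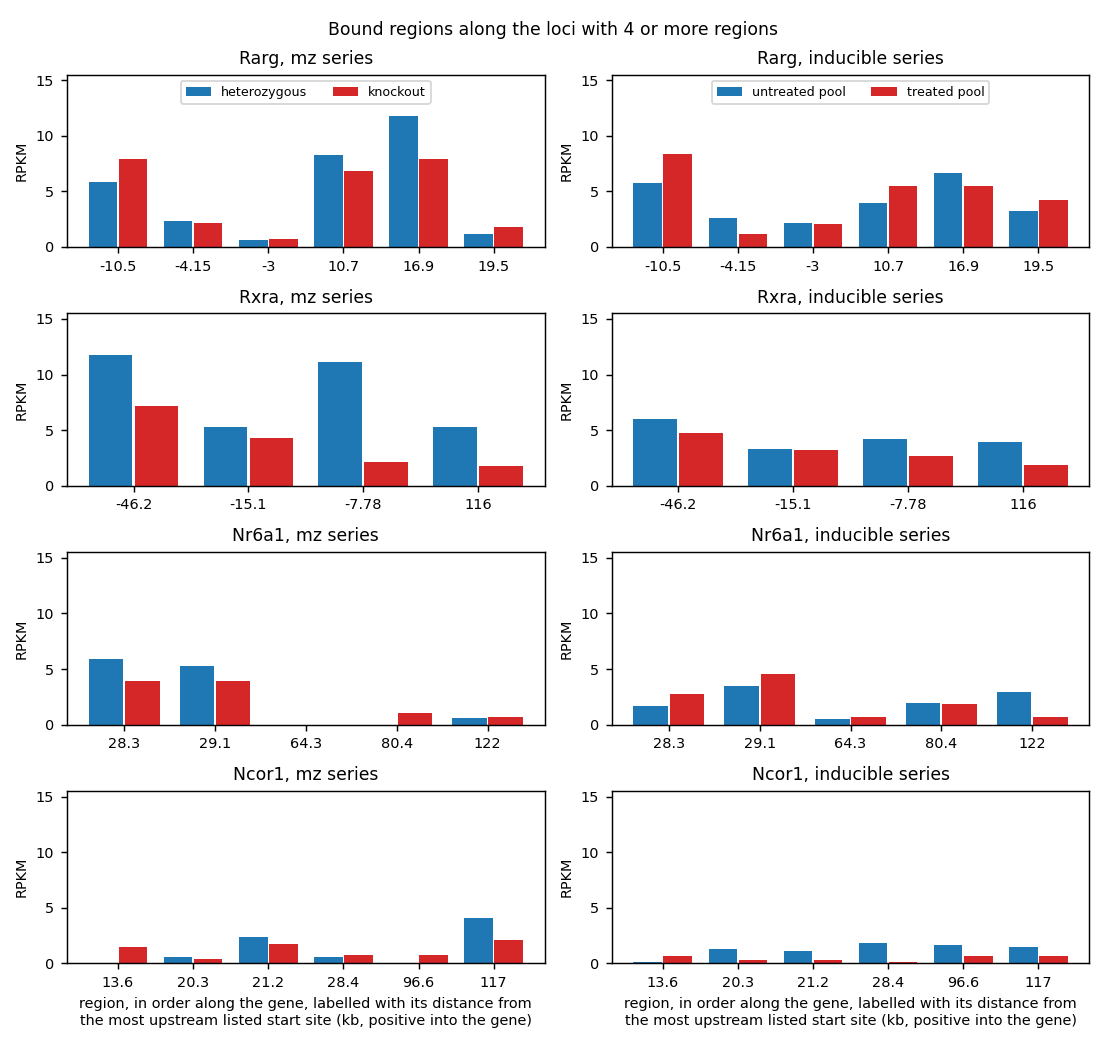
RPKM (vertical axis) of each bound region at Rarg, Rxra, Nr6a1 and Ncor1, the genes with 4 or more regions, ordered along the gene and labelled with the distance in kb from the most upstream listed start site, with control in blue and knockout in red. All 4 Rxra regions are lower in knockouts, Rarg regions go both ways, and Ncor1 regions have at most 4.11 RPKM in any column.

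No region of the fatty acid and sterol sensor genes was called, where 1.73% of all regions were called lower in the mz series and 6.37% in the inducible series. Ppard, which encodes the fatty acid sensor PPAR delta, had 2 regions inside the gene with 9.40, 6.46, 3.92 and 3.91 RPKM at 28267282 and 10.6, 8.61, 6.53 and 5.62 RPKM at 28270084 on chromosome 17, a summed ratio of 0.754 (0.468 to 1.22) and 0.912 (0.626 to 1.33). The region inside Nr1h3 (LXR alpha, an oxysterol receptor), 1.95 kb from a listed start, had 1.76 RPKM in heterozygotes, 6.46 in mz knockouts, 5.71 untreated and 3.91 treated. Its mz ratio of 3.66 (1.07 to 19.4) was the highest of the 15 genes and rested on 3 against 18 reads (adjusted p = 0.296, exact binomial test). Nr1h2, the LXR beta gene, had ratios of 1.93 (0.742 to 5.91) and 1.07 (0.650 to 1.77) over 2 regions that were not accessible. The mz intervals of Nr1h2, Nr1h3 and Hnf4a lay above 0.668, the ratio of all regions, which fell within the interval of each of 26 further genes. Nr1h4, the bile acid receptor FXR, had 1 accessible region of 3, with 4.11, 1.08, 3.59 and 1.53 RPKM, and its summed ratios were 0.229 (0.0391 to 0.954) from 11 reads in the mz columns and 0.484 (0.230 to 0.966) in the inducible series. No single region at these genes passed the test, and summed ratios were not tested.

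The circadian and ROR receptor genes were represented by Nr1d2 and Rora. Nr1d2, the gene of the repressor REV-ERB beta, had 2 accessible regions with 2.94, 2.15, 5.55 and 3.57 RPKM at 10.6 kb and 1.17, 1.08, 1.47 and 2.21 RPKM inside the gene. Rora, which encodes an activator at the same sites, had 1 accessible region of 3, 145 kb from the listed start, with 9.40, 3.95, 3.43 and 2.04 RPKM. Its ratios of 0.420 (0.176 to 0.963) and 0.596 (0.267 to 1.27) did not pass the test. Over the whole NR1 subfamily, 24 regions at 11 genes, the ratio was 0.841 (0.688 to 1.03) in mz embryos and 0.836 (0.731 to 0.954) in the inducible series. Only the Thra region was called, 4.17% of the 24 in the inducible series, beside 6.37% of all regions.

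In the NR2 subfamily, 9 regions at 6 genes, ratios were 0.680 (0.496 to 0.933) and 0.713 (0.568 to 0.892). The Rxra call in mz embryos and a Nr2e1 call in the inducible series were 1 region each (11.1%, beside 1.73% and 6.37% of all regions). The highest mean of both controls in this subfamily was at the Rxra region at 27630683. Nr2e1 encodes TLX, an orphan repressor of neural stem cells, and its region lay 7.48 kb outside the gene (chromosome 10, 42554329 to 42554642). It had 1.76 and 1.43 RPKM in the mz columns, 4.24 untreated and 1.19 treated, and the inducible loss was 26 against 7 reads, a ratio of 0.281 (0.103 to 0.664). The exact binomial test gave an adjusted p of 0.0305, while the mz values rested on 3 against 4 reads, with a ratio of 0.814 (0.138 to 5.56). Nr2c2, the gene of testicular receptor 4, had 5.29, 5.38, 4.08 and 4.59 RPKM, and a CUT&RUN signal of 11.9 RPKM. Its ratios were 1.02 (0.417 to 2.64) and 1.13 (0.629 to 2.02). Hnf4a, a receptor gene of liver and visceral endoderm, had 3.52, 6.81, 4.90 and 2.72 RPKM, higher in mz knockouts and lower in the treated pool without passing either test. Nr2f2, the COUP-TFII gene, had 1.76, 2.51, 1.31 and 1.02 RPKM, and the single Nr2c1 region had at most 0.681 RPKM.

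**Figure D3:**
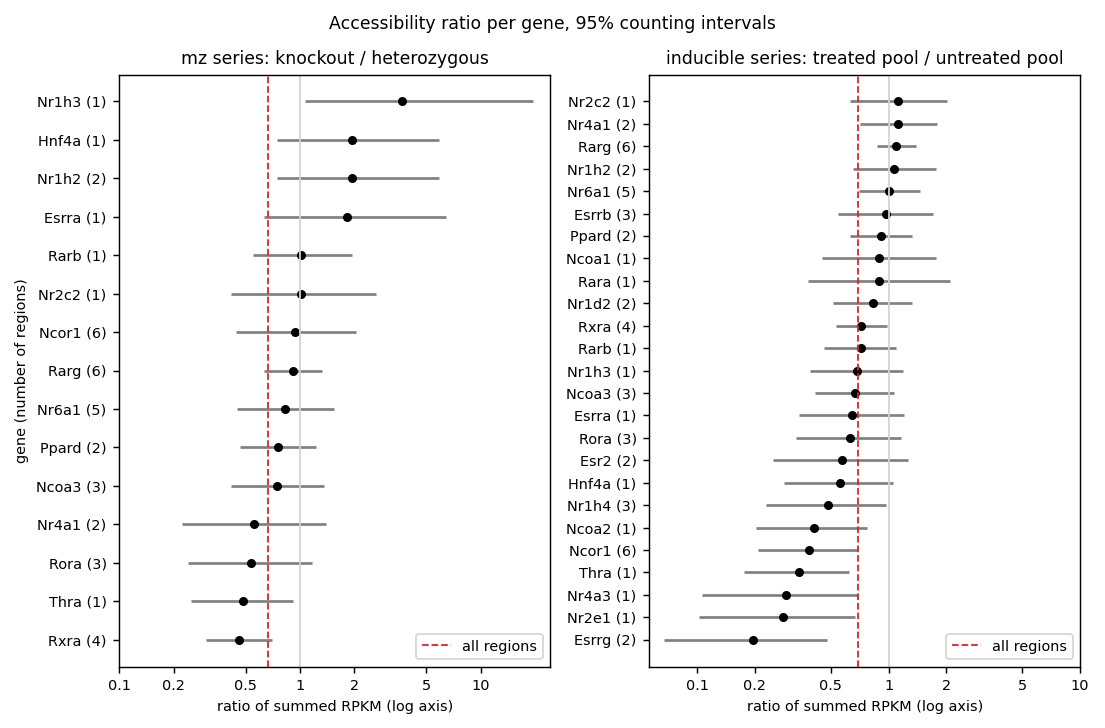
Ratio of summed RPKM, knockout over control, for each gene with at least 20 reads in the compared columns (log axis), with exact 95% counting intervals and the number of regions in parentheses; the dashed line is the ratio of all regions. In the mz series (15 genes) Rxra is lowest at 0.461 and Nr1h3 highest at 3.66, and in the inducible series (25 genes) Esrrg is lowest at 0.195 and Nr2c2 highest at 1.13.

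The estrogen and estrogen-related receptor genes, which make up the NR3 regions here, had a ratio of 0.629 (0.378 to 1.05) in mz embryos and 0.583 (0.419 to 0.805) in the inducible series over 8 regions at 4 genes. Esrrg encodes an orphan regulator of mitochondrial genes. Its accessible region (chromosome 1, 188027156 to 188027424) had 2.94 RPKM in heterozygotes, 2.15 in mz knockouts, 3.43 untreated and 0.681 treated. The inducible loss was 21 against 4 reads, a ratio of 0.199 (0.0496 to 0.589), and passed the test (adjusted p = 0.0239, exact binomial test). The mz values, 5 against 6 reads, were too few to tell a like loss from none. The other Esrrg region was not accessible and had 1.80 RPKM untreated and 0.340 treated, and over both regions the inducible ratio was 0.195 (0.0668 to 0.474), the lowest of 25 genes with at least 20 reads.

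The region inside Esrra, 4.65 kb from a listed start (chromosome 19, 6916782 to 6917541), had the highest mean of both controls in this group, with 2.94, 5.38, 4.73 and 3.06 RPKM. It was above its control in the mz series and below in the inducible series, and neither difference passed the test. Esrrb, the pluripotency factor gene, had 3 regions inside it, none accessible, with summed ratios of 0.488 (0.168 to 1.37) and 0.968 (0.545 to 1.71). Esr2, the estrogen receptor beta gene, had 1 accessible region of 2, with 3.52, 0.359, 1.80 and 0.681 RPKM. That mz ratio of 0.102 (0.00221 to 0.839) rested on 6 against 1 reads and did not pass the test (adjusted p = 0.202, exact binomial test).

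The remaining receptor genes were Nr4a1, Nr4a3, Nr5a1 and Nr6a1, with 9 regions and ratios of 0.717 (0.461 to 1.12) and 0.887 (0.685 to 1.15). Nr4a3 and Nr4a1 are immediate-early genes of orphan receptors. The Nr4a3 region (chromosome 4, 48069498 to 48069895) had 2.94, 1.43, 4.08 and 1.19 RPKM, lower in both knockouts. It passed the test in the inducible series with 25 against 7 reads and a ratio of 0.292 (0.107 to 0.694). The exact binomial test gave an adjusted p of 0.0407. The accessible region labelled Nr4a1 (chromosome 15, 101261115 to 101261575), with the highest mean of both controls in this group, had 6.46, 3.59, 5.22 and 6.13 RPKM. There the treated pool was above the untreated one, with a ratio of 1.17 (0.708 to 1.95).

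Nr6a1, the gene of germ cell nuclear factor, a repressor of pluripotency genes, had 5 regions inside it. Its 2 accessible regions, separated by 420 bp, had 5.29, 3.95, 3.43 and 4.59 RPKM at 38897233 and 5.87, 3.95, 1.63 and 2.72 RPKM at 38897848 on chromosome 2. Both were below control in the mz series and above it in the treated pool. The region at 38804585, not accessible, had 0.587, 0.717, 2.94 and 0.681 RPKM, with an inducible ratio of 0.232 (0.0570 to 0.703) that did not pass the test (adjusted p = 0.0600, exact binomial test). The locus as a whole had ratios of 0.824 (0.445 to 1.55) and 1.01 (0.701 to 1.46). The neighbouring gene Nr5a1, the closest relative of Nr5a2, had 1 region 23.6 kb away that was not accessible, with 1.76, 1.79, 1.14 and 0.681 RPKM.

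Cofactor genes had 1 called region of 11, in the inducible series (9.09%, beside 6.37% of all regions). Their 11 regions at 4 genes had ratios of 0.836 (0.563 to 1.25) and 0.552 (0.416 to 0.727), with overlapping intervals, and a test of that difference was not run. Ncoa2, a coactivator gene of the p160 family, had a region inside it (chromosome 1, 13146483 to 13146857) with 5.29, 2.51, 5.88 and 2.38 RPKM. It was lower in both knockouts and passed the test in the inducible series with 36 against 14 reads and a ratio of 0.405 (0.202 to 0.770). The exact binomial test gave an adjusted p of 0.0455. It also had the highest mean of both controls among cofactor regions. Ncoa3 had 3 regions inside it with ratios of 0.743 (0.413 to 1.35) and 0.667 (0.414 to 1.06), and the region nearest to Ncoa1, 39.3 kb away, had 0.587, 2.87, 3.43 and 3.06 RPKM.

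Ncor1, the corepressor gene, had 6 regions inside it, of which 1 was accessible, with 4.11, 2.15, 1.47 and 0.681 RPKM. In the inducible pools 5 of the 6 regions had a lower value after treatment, as did 74.4% of all regions. The largest of these differences, at 62428566 on chromosome 11, was 1.80 against 0.170 RPKM, from 11 against 1 reads (adjusted p = 0.0760, exact binomial test). No single Ncor1 region passed the test, and the summed ratio was 0.385 (0.207 to 0.685). That interval lay below the ratio of all regions, as at Thra, Nr2e1 and Esrrg among the 29 genes. It holds counting error only, and a pair of its regions 685 bp apart may share reads. In the mz series the summed ratio was 0.939 (0.445 to 2.05), from 33 reads in both columns together.

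**Figure D4:**
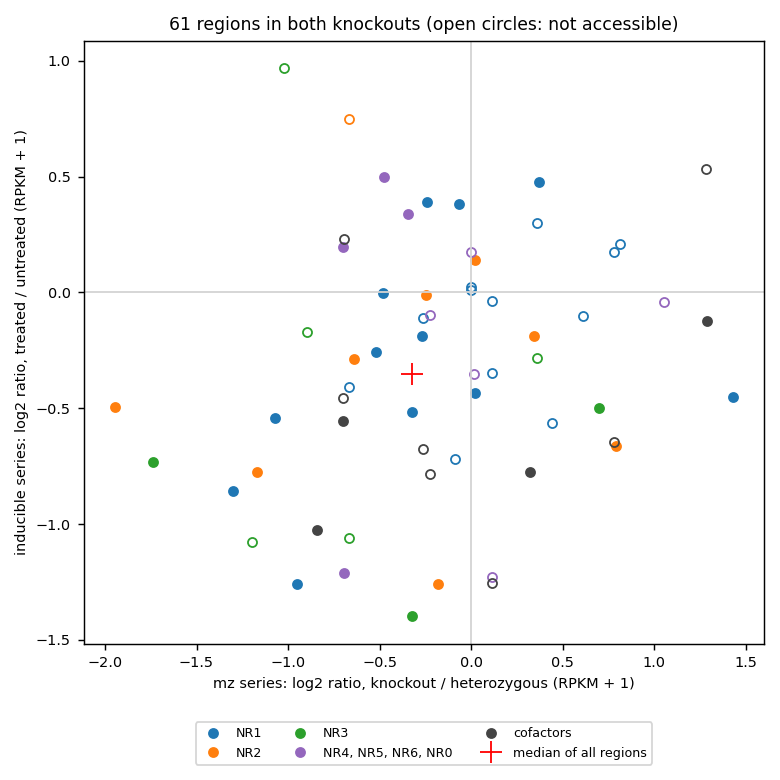
Log2 ratio of knockout over control on the RPKM + 1 scale for the 61 regions, mz series (horizontal) against inducible series (vertical), coloured by receptor subfamily or cofactor, with filled circles for accessible regions, open circles for regions that are not, and a cross at the median of all regions (−0.32 and −0.35). Of the 61 regions 27 lie at the lower left, lower in both series, and the others are spread over the rest of the plane.

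Strength of binding was set beside accessibility within the members. The 16 accessible regions with the stronger CUT&RUN signal (at least 6.60 RPKM) had an inducible ratio of 0.689 (0.593 to 0.799) and the 15 others 0.818 (0.700 to 0.956). The mz ratios had the opposite order, 0.800 (0.652 to 0.982) and 0.688 (0.542 to 0.875). Over all accessible regions split at the same signal, the stronger ones were lower in both series (0.636 against 0.658 in mz embryos and 0.673 against 0.703 in the inducible series). The intervals of the members overlap in both series. Accessible regions inside member genes had ratios of 0.770 (0.644 to 0.921) and 0.731 (0.643 to 0.830), and those outside 0.696 (0.508 to 0.953) and 0.790 (0.645 to 0.965).

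Other genes of nuclear receptor signalling were listed by function. Coregulators had 42 regions at 15 of 22 genes, with ratios of 0.713 (0.600 to 0.847) and 0.715 (0.630 to 0.810), 2 regions lower in mz embryos (4.76%, beside 1.73% of all regions), 3 in the inducible series (7.14%, beside 6.37%) and none higher. In mz knockouts a region inside Lcor, a ligand-dependent corepressor gene, had 19.4 RPKM in heterozygotes and 7.17 in knockouts, and a region inside Ppargc1b, a coactivator gene of mitochondrial biogenesis, 8.81 and 1.08 RPKM. In the inducible series the calls were 2 regions inside Nrip1, a corepressor gene, with 2.45 and 3.10 RPKM untreated and 0.340 RPKM each treated, and 1 inside Ncoa7, with 4.57 and 1.02 RPKM. Genes of ligand metabolism and transport had only 3 regions, at 3 of 25 genes. The 1 called region, 41.5 kb from the thyroid hormone deiodinase gene Dio3, was lower in the treated pool (3.43 to 0.851 RPKM). That was 33.3% of the 3, beside 6.37% of all regions, and none was called in mz embryos. Receptor chaperone genes had 8 regions at 4 of 5 genes, with ratios of 0.611 (0.450 to 0.828) and 0.647 (0.509 to 0.820). None was called in either series, where 1.73% and 6.37% of all regions were called lower.

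No bound region was assigned to the other 20 genes. They are Ppara, Pparg, Nr1d1, Rorb, Nr1h5, Vdr, Nr1i2 and Nr1i3 of the NR1 subfamily, and Hnf4g, Rxrb, Rxrg, Nr2e3, Nr2f1 and Nr2f6 of the NR2 subfamily. The others are the steroid receptor genes Esr1, Nr3c1, Nr3c2 and Pgr, with Nr4a2 and Nr0b2. A region near such a gene can still lie closer to a neighbour, since counting every region within 50 kb of any of the 49 gene spans gave 121 regions in place of 61.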

How the data were processed

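The deposited table was the only file. Per the file headers it lists NR5A2-bound regions (from CUT&RUN of earlier work), with 1 ATAC-seq RPKM value per group and a CUT&RUN RPKM value as the authors computed them. Cutadapt, Bowtie2, MACS2 and mm10 are named per the submitters' processing notes, with the merging of embryos, duplicate removal and insertion shift not given in the sources used here. The ratio column the authors deposited for each series was checked against the RPKM columns, and equalled (knockout + 0.01)/(control + 0.01). Their classes of change followed from the mean of the 2 ratios (under 0.667 a loss, over 1.5 a gain). Summit positions were taken from the deposited table unchanged.

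All RPKM values of a column were whole multiples of 1 step (100% within 0.01 of the step), whatever the region's length, so reads were recovered by division. Values were thus not scaled to the listed length of a region, and whether a window of fixed width was counted is not known. Regions were tested one by one (exact binomial, two-sided, with the steps as exposure), Benjamini-Hochberg adjusted over all 16958 regions at 0.05 (Python 3.11.15, scipy 1.17.1). Intervals of summed ratios are 95% Clopper-Pearson intervals, conditional on the reads of both columns. The mz and inducible ratios were compared through Fisher's noncentral hypergeometric distribution, exactly. Both tests were run on simulated data first. Regions went to the nearest protein-coding span in a RefSeq table (GRCm38.p6), with no ties. Named are called regions, the region with the highest mean of both controls in each role group, genes with 4 or more regions, the 5 lowest and 5 highest gene ratios among genes with at least 20 reads, and genes without a region. Names outside this rule were chosen after their values were seen. Members and lists were chosen with earlier results of these data known. Alternatives were other scalings, a minimum of 10 reads, 10 kb, the accessible class, other pseudocounts than 1 RPKM and any member span.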

Additional observations from a re-analysis of the deposited data

How the results depend on the processing

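With knockout columns scaled to a median log2 ratio of 0, the member ratio of summed RPKM became 0.967 in mz embryos and 0.963 in the inducible series, and the regions called lower fell from 1 to 0 and from 5 to 0 (over all regions from 293 to 52 and from 1081 to 199). Before scaling, the member ratios were above the 0.668 and 0.694 of all regions, and scaling keeps that order. With the summed ratio of all regions scaled to 1, both counts of member regions called lower were also 0 (14 and 78 over all). The member ratios then lie above 1, since those of all regions are 1. Counting every region within 50 kb of a member span gave 2 and 9 regions lower of 121, where 1.73% and 6.37% of all regions were called lower. The other alternatives (10 kb, accessible regions, medians, without the region with the most control reads, at least 10 reads) kept member ratios within their intervals. The counts stayed at 1 and 5 with 10 kb, accessible regions and at least 10 reads, and were not recomputed for the others. Uncalled regions changed sign on scaling, by construction of the shift. In the mz series Nr2e1 had log2 ratios of 0.0154 with the median and 0.19 with the sum scaled, and Esrrg 0.10 with the sum scaled. In the inducible series the Rxra region at 27630683 had 0.00714 and 0.16. Pseudocounts of 0.1 and 2 RPKM changed only the size of the log2 ratios. They cannot turn a direction and do not enter the test, so they are no check of either. No paired analysis was possible because the columns are merged groups, and for the same reason no embryo could be left out. The median was 5 reads per member region in each mz column, so a region without a call is not shown to be unchanged.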

Other observations

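Neighbouring regions of a locus did not always move alike. Inside Esrrb, regions at 86443897 and 86446789 on chromosome 12 had 0.816 and 1.47 RPKM in the untreated pool, and 2.55 and 0.170 RPKM in the treated pool. The former was higher after treatment (unadjusted p = 0.0241, exact binomial test) and the latter lower (unadjusted p = 0.0218, exact binomial test), and neither passed after adjustment over all regions (0.161 and 0.151). In the mz series both had lower values in knockouts, 1.76 against 0.359 RPKM and 2.94 against 0.717 RPKM.

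The Nr1h3, Hnf4a and Esrra regions were each higher in mz knockouts and lower in the treated pool. Their ratios were 3.66 and 0.685 at Nr1h3, 1.93 and 0.556 at Hnf4a, and 1.83 and 0.647 at Esrra. The exact test of the difference between series gave an unadjusted p of 0.00954 at Nr1h3 and 0.0270 at Hnf4a, and adjusted values of 0.991 and 1 over all regions. These regions were picked after their values were seen.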
